A study of Mus musculus with 7 samples.

Results

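The insulin-like growth factor (IGF) genes described here were Igf1, Igf2, Igf1r, Igf2r, Igfbp2, Igfbp3, Igfbp4, Igfbp5, Igfbp6 and Igfbp7. They were taken by symbol as 10 members of the family, among 55487 gene identifiers in the count files, by a rule that uses no measured value, though earlier results of these data were known when the set was chosen. The set held 2 ligands, 2 receptors and 6 binding proteins. All 10 had an entry in the GENCODE M21 annotation of mm10, and 9 had enough counts to be tested between groups.

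Ovaries of adult C57BL/6J females were collected at diestrus on postnatal day 60, and messenger RNA from 3 CNTR and 4 PAMH F3 libraries was sequenced. CNTR females were offspring of dams that had received PBS. PAMH F3 females descended through F1 and F2 from F0 dams that had received human anti-Müllerian hormone (AMH) at 0.12 mg/kg/day from E16.5 to E18.5, and F2 and F3 pregnancies received no further AMH. CNTR females were F1 and PAMH F3 females were F3, so the ancestral treatment and the generation cannot be told apart. The sample labels give the injections as subcutaneous, whereas the methods text gives them as intraperitoneal. The labels tell the libraries apart by number only, and the p-values below measure the spread between these libraries.

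IGF1 and IGF2 are small secreted ligands related to insulin. Both signal through the receptor tyrosine kinase encoded by Igf1r, whereas the receptor encoded by Igf2r carries IGF2 into lysosomes for breakdown. Binding proteins hold the ligands in the extracellular space and are cut by proteases such as PAPPA, which frees the ligand. In the ovary, granulosa cells are a main source of Igf1, and the axis is known for amplifying the response of follicles to FSH.

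Each library held between 32158174 and 35485021 gene counts. Libraries were scaled to TMM CPM (counts scaled to library size, after edgeR's composition factors). CNTR 2 stood apart in base composition. In each library, the deviation of log2 levels from each gene's mean over the 7 libraries was fitted against GC content. The slope per 10 percentage points was 0.32 in CNTR 2, against -0.13 to 0.05 in the other 6 libraries. Summed levels of granulosa, theca, luteal, oocyte, stroma, smooth muscle, endothelium, leukocyte, surface epithelium, oviduct and adipocyte markers overlapped between the groups in all 11 lists. Of the 58 markers tested, 0 were higher and 7 lower in PAMH F3 at an unadjusted p under 0.05, against 3.75% and 3.89% of all genes. At an adjusted p of 0.05, edgeR called 0 of the markers, as did DESeq2 with the same surrogate variables. The 7 were the luteal markers Ptgfr and Prlr, the endothelial markers Pecam1 and Emcn, the granulosa markers Foxl2 and Amh and the stroma marker Tcf21, with log2 fold changes between -0.95 (Ptgfr) and -0.21 (Emcn). Without surrogate variables 3 were lower, Ptgfr, Foxl2 and Tcf21. All 4 luteal, all 5 endothelial and all 5 adipocyte markers had a fitted fold change below 0. So did 41 of the 58 markers tested, against 48.3% of all genes. Of the 6 granulosa markers, 2 were below 0 and 4 above, and of the 6 stroma markers, 4 were below and 2 above. Without surrogate variables, 4 of the 6 granulosa markers and all 6 stroma markers were below 0. The part of these cell types in the differences below was not tested. Oviduct markers summed to between 2557 and 6406 CPM, and adipocyte markers to between 86.2 in PAMH F3 4 and 667 in CNTR 1, so transcripts of these markers were present in every library. Marker sums follow their most abundant genes, as Ovgp1 alone of the oviduct list stood at 2394 to 6172 CPM. In bulk tissue, fewer cells of a type and less RNA per cell cannot be told apart.

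The coding starts of 3 members show the range of base composition in the family, which matters because CNTR 2 differed from the other libraries with GC content. Each is the first 120 bases of the longest coding transcript in GENCODE M21, 5′ to 3′, from the start codon, with G and C in capitals. Igf1 (chr10:87858265-87937042, plus strand) had the lowest GC content of the members over all its annotated transcripts, 43.6%, and 55.0% in the stretch shown. Igfbp6 (chr15:102144362-102149511, plus strand) had the highest over its transcripts, 60.7%, and 67.5% in this stretch. Igfbp3 (chr11:7206086-7213923, minus strand) was more GC-rich than both at its coding start, 80.8%, yet had 53.6% over its transcripts.
Igf1: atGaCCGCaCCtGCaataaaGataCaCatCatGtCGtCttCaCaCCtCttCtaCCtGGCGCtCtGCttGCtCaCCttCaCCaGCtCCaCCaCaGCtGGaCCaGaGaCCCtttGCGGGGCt
Igfbp6: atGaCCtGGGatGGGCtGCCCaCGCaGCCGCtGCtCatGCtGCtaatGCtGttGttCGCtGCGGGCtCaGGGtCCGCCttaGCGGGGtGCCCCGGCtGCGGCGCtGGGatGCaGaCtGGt
Igfbp3: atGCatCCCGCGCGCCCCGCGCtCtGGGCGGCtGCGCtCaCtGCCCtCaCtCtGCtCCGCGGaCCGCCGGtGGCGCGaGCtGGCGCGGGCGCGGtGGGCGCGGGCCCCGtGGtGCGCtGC

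All binding proteins, both receptors and Igf1 were well detected in every library. Igfbp5 stood at the 99.6th percentile of mean CPM among the 18779 genes tested, Igf1r at 96.4, Igfbp7 at 94.4, Igfbp4 at 94.1, Igf1 at 94.0 and Igf2r at 91.9. Igfbp6 followed at 77.5, Igfbp2 at 59.9 and Igfbp3 at 52.9. Levels of different genes were compared per kilobase of transcript, and the order depended on the length used. With the median transcript length, the mean over the 7 libraries was 227 CPM per kb for Igfbp4, 178 for Igf2r, 167 for Igfbp5, 154 for Igfbp7, 124 for Igf1, 115 for Igf1r, 59.3 for Igfbp6, 31.8 for Igfbp2 and 11.1 for Igfbp3. With the union of all exons, it was 148 CPM per kb for Igfbp7, 143 for Igfbp5, 59.3 for Igfbp6, 39.3 for Igfbp4, 17.2 for Igf1, 17.1 for Igfbp2, 15.3 for Igf2r, 13.7 for Igf1r and 7.31 for Igfbp3. The Igf2r level depended most on this choice, since its 3 annotated transcripts had a median length of 803 bases and a union of 9308 bases. Igfbp3 was lowest of the 9 under both lengths.

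On the exon-union scale, library ranges of neighbours in this order overlapped in all but 2 steps. Igfbp5 reached down to 106 CPM per kb and Igfbp6 up to 104, a gap smaller than the spread of either gene. The clear step lay below Igfbp4, whose lowest library was at 28.7 CPM per kb, above every library of Igf1, Igfbp2, Igf2r and Igf1r, of which the highest was at 22.0, in Igfbp2. Igf1, Igfbp2, Igf2r and Igf1r overlapped with each other.

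Of the 9 members tested, edgeR's quasi-likelihood test with 2 surrogate variables called 0 at an adjusted p of 0.05, and 3 had an unadjusted p under 0.05. Over all genes tested these shares were 0.0% and 7.64%. Igf1r was higher in PAMH F3 and Igfbp3 and Igfbp6 were lower, with 3.75% of all genes under this p and higher in PAMH F3 and 3.89% lower. Without surrogate variables only Igfbp6 had an unadjusted p under 0.05, against 3.95% of all genes. With these surrogate variables in DESeq2 (Wald test), 1 member passed, Igfbp6, against 0.583% of the 17333 genes given an adjusted p there. The fitted fold change was below 0 for 6 of the 9 members and for 48.3% of all genes, with a median log2 fold change of -0.06 over the members and 0.00 over all genes.

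**Figure D1:**
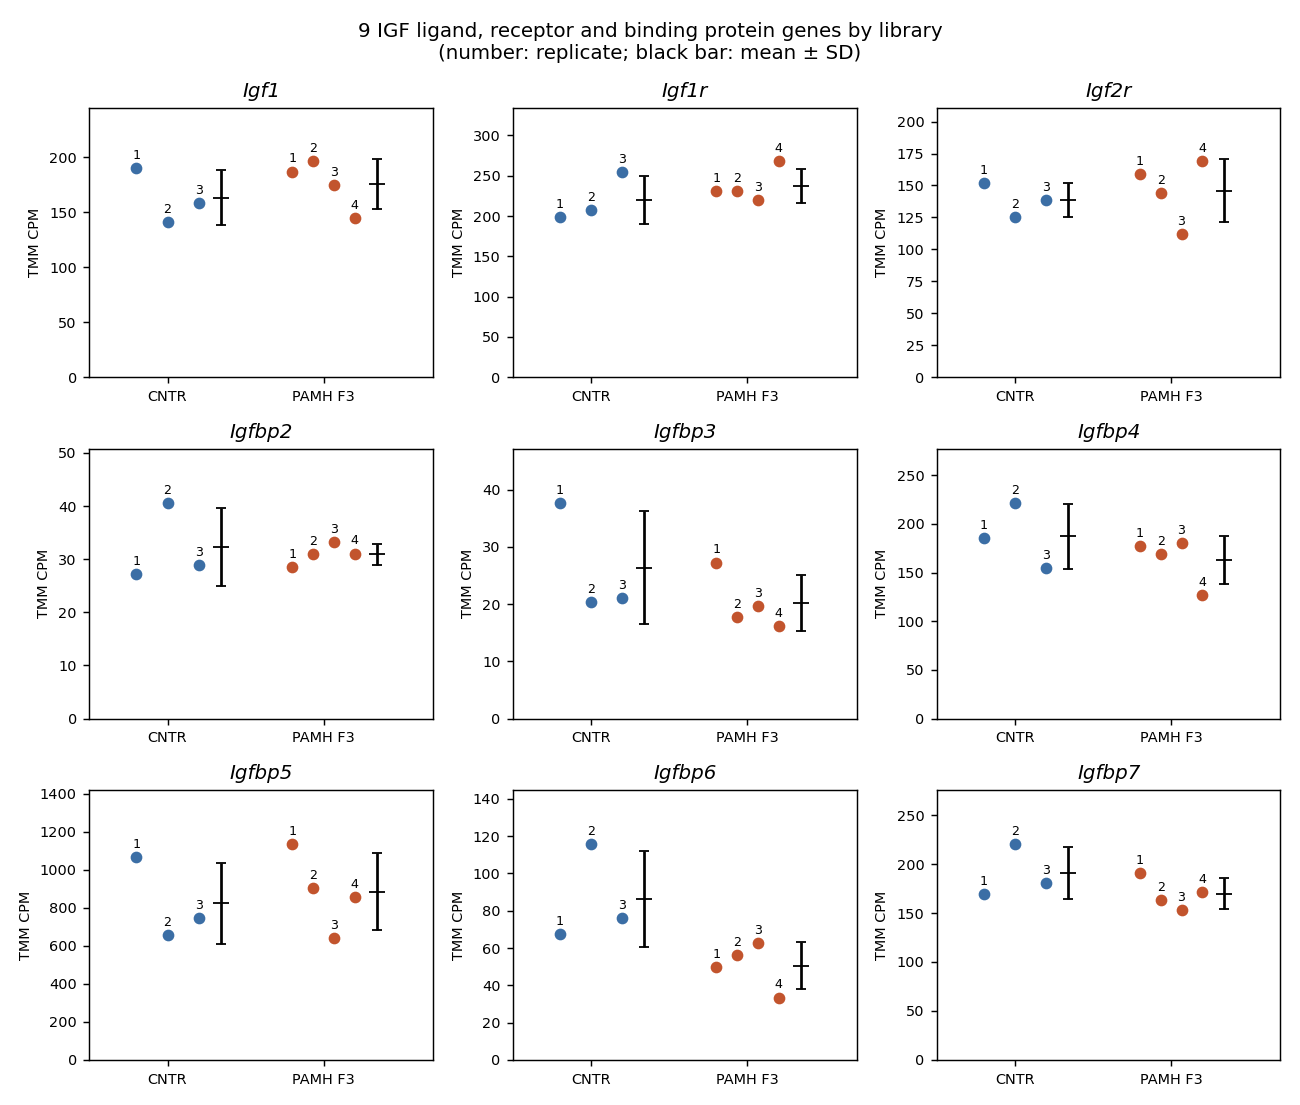
TMM CPM of the 9 members tested in each library, with the replicate number above each point and black bars for mean ± SD (CNTR, n = 3; PAMH F3, n = 4; all axes start at 0). The groups separate in Igfbp6, where the PAMH F3 libraries lie between 33.5 and 62.5 CPM and the CNTR libraries between 67.6 and 116; they overlap in the other panels.

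Among the ligands, Igf1 was at like levels in both groups. Its level was 190 CPM in CNTR 1, 141 in CNTR 2 and 158 in CNTR 3, against 187, 196, 175 and 145 in PAMH F3 1 to 4. The lowest library and the third lowest were CNTR, PAMH F3 4 lay between them, and the groups overlapped. Group means were 163 ± 24.9 (SD, n = 3) and 176 ± 22.3 CPM (SD, n = 4), with a log2 fold change of 0.04 ± 0.11 (SE) and an edgeR adjusted p of 0.969. Without CNTR 1, its highest control, this fold change was 0.25.

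The other ligand gene, Igf2, is an imprinted growth factor gene that is most active before birth, and its counts did not give a usable level. Igf2 (chr7:142650766-142666816, minus strand) had 5, 5 and 4 counts in the CNTR libraries and 2, 3, 3 and 2 in the PAMH F3 libraries. Of its 5723 exonic bases, 3596 (62.8%) are shared on the same strand with the gene model Gm49394, as are 546 of its 678 coding bases (80.5%). Counting in union mode leaves reads in such shared bases unassigned, and Gm49394 itself had 0 counts in every library. A further 98 exonic bases are shared with Igf2os on the opposite strand, which had between 8 and 16 counts. These overlaps are those of GENCODE M21, and the annotation release and strand setting of the counting are not given in the sources used here. With 24 Igf2 counts over all libraries, no fold change is given for this gene.

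For the receptors, Igf1r encodes the signalling receptor of both ligands. Its level was 198, 207 and 254 CPM in CNTR 1 to 3, and 231, 231, 219 and 268 CPM in PAMH F3 1 to 4. CNTR 1 and 2 were the lowest libraries and CNTR 3 the second highest, so the groups overlapped. The log2 fold change was 0.14 ± 0.06 (SE), with an edgeR adjusted p of 0.640, and the exact permutation test of the measured levels gave p = 0.314 (two-sided, 3 against 4 libraries). With surrogate variables, the Igf1r log2 fold change was 0.038 without CNTR 1, and between 0.12 and 0.18 when any other single library was left out. With 0 surrogate variables, it ranged from 0.042 without CNTR 1 to 0.23 without CNTR 3, and was 0.050 without PAMH F3 4. The smallest p this permutation test can give, over its 35 divisions of the libraries, is 0.0286.

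Igf2r, the clearing receptor, is imprinted and expressed from the maternal allele in most mouse tissues. It was at 152, 125 and 138 CPM in the CNTR libraries and at 159, 144, 112 and 169 CPM in the PAMH F3 libraries. The highest and the lowest library were both PAMH F3. Its log2 fold change was -0.01 ± 0.10 (SE; edgeR adjusted p = 0.990) with surrogate variables and 0.07 without them. The ratio of Igf1r to Igf2r CPM was 1.60 ± 0.27 in CNTR (SD, n = 3) and 1.65 ± 0.21 in PAMH F3 (SD, n = 4), and the groups overlapped.

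Igfbp6 was the 1 tested member whose groups did not overlap. It encodes a binding protein that prefers IGF2 to IGF1. It was at 67.6, 116 and 76.1 CPM in CNTR 1 to 3 and at 50.0, 56.1, 62.5 and 33.5 CPM in PAMH F3 1 to 4. Every PAMH F3 library was below every CNTR library, CNTR 2 was far above the other controls, and PAMH F3 4 was below the other PAMH F3 libraries. Group means were 86.5 ± 25.7 (SD, n = 3) and 50.5 ± 12.5 CPM (SD, n = 4). Groups separated in this way in 2.4% of all genes tested with PAMH F3 lower, and in 1.85% with PAMH F3 higher.

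The log2 fold change of Igfbp6 was -0.61 ± 0.12 (SE) with surrogate variables and -0.77 ± 0.23 without. In edgeR the adjusted p was 0.400 with surrogate variables, and in DESeq2 with the same surrogate variables it was 0.0059. DESeq2 without surrogate variables gave an adjusted p of 0.733. The exact permutation test of its measured levels gave p = 0.0571 (two-sided). Without CNTR 1, the edgeR log2 fold change was -0.89 and the adjusted p 0.0363, and without CNTR 1 and surrogate variables the adjusted p was 0.546. Whether Igfbp6 passed the threshold thus depended on the tool, on the surrogate variables and on 1 control library. The fitted difference was below 0 in all 26 alternatives, between -0.92 and -0.37. These alternatives reuse the same 7 libraries, whose groups do not overlap, so the shared sign is no separate evidence.

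The high value of CNTR 2 in Igfbp6 went with base composition across the family. CNTR 2 was above the mean of the other CNTR libraries in Igfbp6 (60.7% GC), Igfbp2 (59.2%), Igfbp7 (59.0%) and Igfbp4 (55.9%), the 4 most GC-rich of the tested members, by 0.69, 0.53, 0.33 and 0.39 on the log2 CPM scale. In the other 5 tested members, with 43.6% to 53.6% GC, it was below that mean. With offsets for GC content and transcript length, Igfbp6 was at 74.1, 77.4 and 75.6 CPM in the CNTR libraries and at 57.4, 60.5, 57.9 and 40.2 CPM in the PAMH F3 libraries. The 3 controls then lay close together and the groups still did not overlap. How many of all genes separate after these offsets was not computed. With these offsets and no surrogate variables, the log2 fold change was -0.49 ± 0.13 (SE), with an edgeR adjusted p of 0.999.

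**Figure D2:**
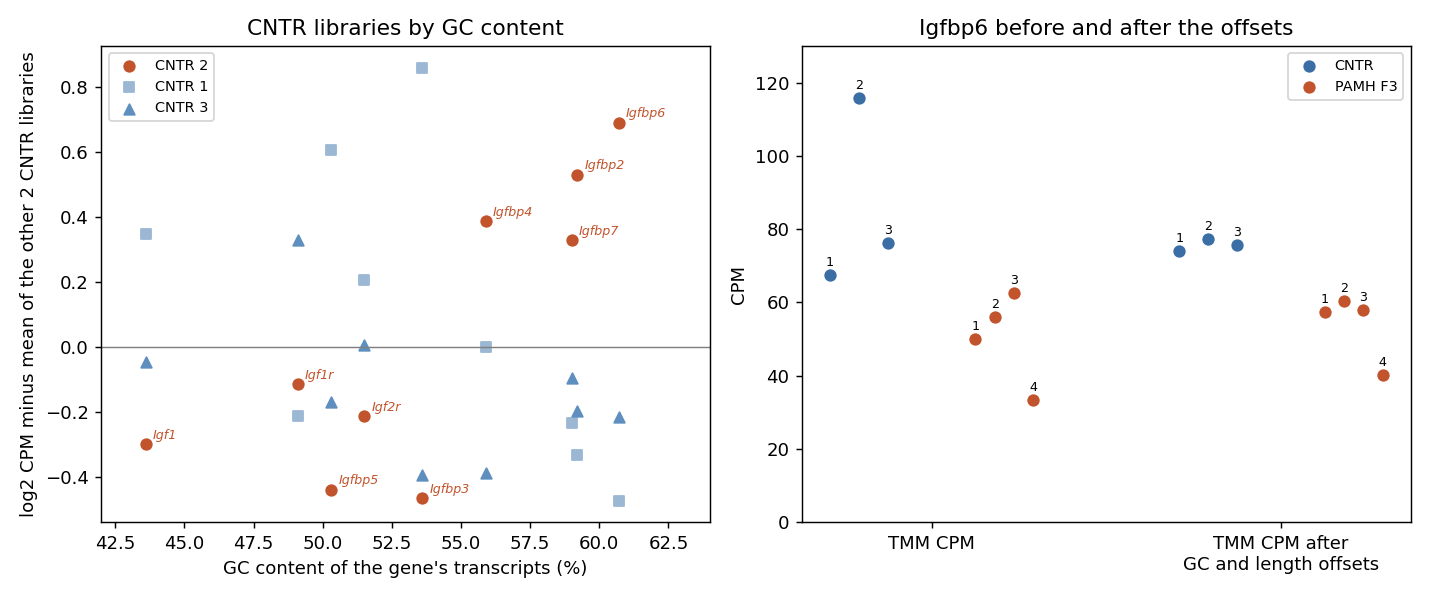
Left, log2 CPM of each CNTR library minus the mean of the other 2 CNTR libraries (y) against the GC content of the gene's transcripts in percent (x) for the 9 members tested, with gene names at the CNTR 2 points. Right, Igfbp6 CPM in each library (number: replicate) before and after offsets for GC content and length: CNTR 2 moves from 116 to 77.4 CPM, and the PAMH F3 libraries stay below the CNTR libraries.

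PAMH F3 4 had the lowest level of Igfbp3, Igfbp4 and Igfbp6 of all 7 libraries. It also had the lowest slope on GC content, -0.13 per 10 percentage points, and stood at the end of several marker lists. Its summed CPM was lowest for stroma (1613), smooth muscle (1129), surface epithelium and mesothelium (490), oviduct (2557) and adipocyte markers (86.2). For oocyte markers it was highest (474). In the other libraries, stroma markers summed to between 1823 and 2353 CPM. The sum of 1823 was that of PAMH F3 3, which had the highest Igfbp6 level of the PAMH F3 libraries, 62.5 CPM. The sum of 2353 was that of CNTR 2, which had the highest Igfbp6 level of all 7 libraries, 116 CPM. CNTR 2 also had the highest smooth muscle sum, 2084 CPM. The part of these cell types in the Igfbp6 difference was not tested. Without PAMH F3 4, the Igfbp6 log2 fold change was -0.47 with surrogate variables and -0.62 without.

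Igfbp3, which encodes the main carrier of IGFs in blood, had its highest value in a control. It was at 37.7, 20.4 and 21.1 CPM in CNTR 1 to 3 and at 27.3, 17.8, 19.7 and 16.2 CPM in PAMH F3 1 to 4. CNTR 1 stood well above CNTR 2 and CNTR 3, PAMH F3 1 was second highest, and the groups overlapped. The log2 fold change was -0.54 ± 0.15 (SE; edgeR adjusted p = 0.529; DESeq2 adjusted p = 0.114) and the exact permutation p was 0.343 (two-sided). Without CNTR 1 the log2 fold change was -0.02, so the difference rested on this library. CNTR 1 also had the highest adipocyte marker sum, 667 CPM. This sum was 187 CPM in PAMH F3 1, second highest in Igfbp3, and 491 CPM in PAMH F3 3, where Igfbp3 was at 19.7. Endothelium markers had their highest sums in PAMH F3 1 (265 CPM) and CNTR 1 (260 CPM). The part of either tissue in the Igfbp3 levels was not tested.

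Igfbp5, which binds IGFs and extracellular matrix, varied among libraries more than between groups. It was at 1067, 657 and 745 CPM in the CNTR libraries and at 1136, 907, 639 and 859 CPM in the PAMH F3 libraries. CNTR 1 and PAMH F3 1 were the highest, CNTR 2 and PAMH F3 3 the lowest, and the groups overlapped. Its log2 fold change was -0.06 ± 0.14 (SE; edgeR adjusted p = 0.956) with surrogate variables and 0.10 ± 0.21 without, and 0.32 without CNTR 1, so no direction could be given.

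Igfbp4 encodes the binding protein that PAPPA cleaves in follicles. Its level was 185, 222 and 155 CPM in the CNTR libraries and 177, 169, 180 and 127 CPM in the PAMH F3 libraries. All PAMH F3 libraries were below the CNTR mean of 187 ± 33.4 CPM (SD, n = 3), yet the groups overlapped because CNTR 3 was second lowest. The log2 fold change was -0.16 ± 0.09 (SE; edgeR adjusted p = 0.737), and between -0.21 and -0.11 when 1 library was left out.

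Igfbp2 encodes a binding protein found in many tissues. It was at 27.2, 40.6 and 29.0 CPM in the CNTR libraries and at 28.5, 30.9, 33.3 and 31.1 CPM in the PAMH F3 libraries. Only CNTR 2 lay outside the narrow band of the others. With offsets for GC content and length, the CNTR libraries were at 29.3, 29.7 and 29.2 CPM. The PAMH F3 libraries were then at 31.7, 32.6, 31.0 and 35.9 CPM, and the groups no longer overlapped. The share of all genes whose groups separate after these offsets was not computed, so this separation cannot be judged against it. The log2 fold change was 0.06 ± 0.08 (SE) with surrogate variables, -0.06 ± 0.14 without them and 0.16 ± 0.08 with the offsets, with edgeR adjusted p of 0.891, 0.997 and 0.999.

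Igfbp7 encodes a matrix protein that binds IGFs weakly and is abundant in vessel walls. It was at 170, 220 and 181 CPM in the CNTR libraries and at 191, 164, 153 and 172 CPM in the PAMH F3 libraries. CNTR 2 was highest and PAMH F3 1 second highest, and the groups overlapped. Its log2 fold change was -0.11 ± 0.11 (SE; edgeR adjusted p = 0.850) and 0.04 with the GC and length offsets. Without CNTR 1 it was -0.25, without CNTR 3 -0.19, without CNTR 2 -0.041, without PAMH F3 2 -0.075 and without PAMH F3 3 -0.030. The gene shares 85 exonic bases with Polr2b on the opposite strand, and the sources used here do not say whether counting used strand.

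**Figure D3:**
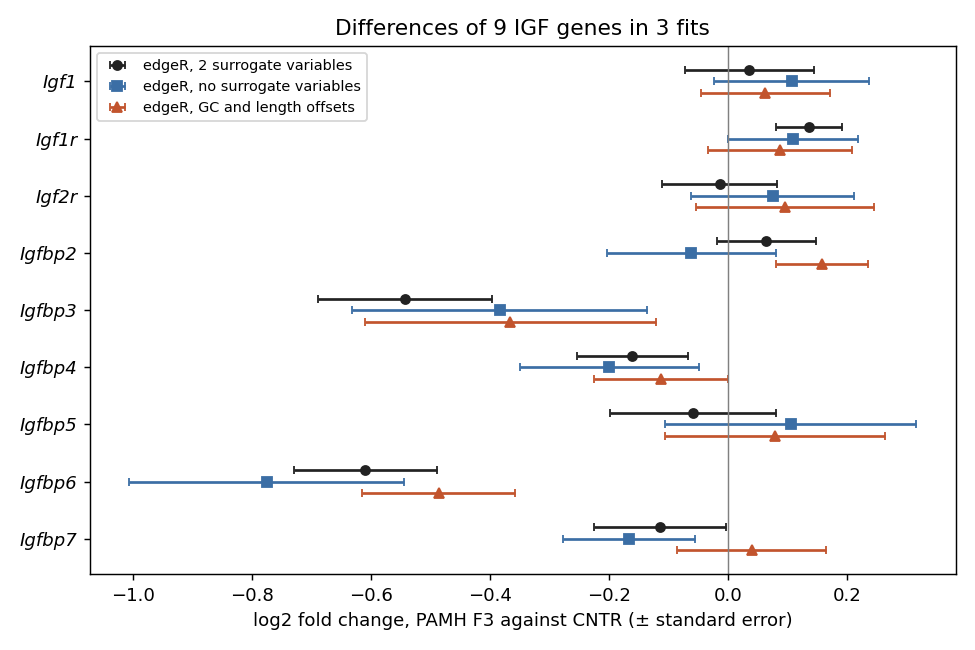
Log2 fold change of PAMH F3 against CNTR (x) for the 9 members tested, as points with standard errors, from edgeR with 2 surrogate variables (circles), without them (squares) and with GC and length offsets (triangles). Igfbp6 is at -0.61, -0.77 and -0.49 and Igfbp3 at -0.54, -0.38 and -0.37, while the points of Igf2r, Igfbp2, Igfbp5 and Igfbp7 fall on both sides of 0.

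The pool of binding protein transcripts as a whole did not separate the groups. The 6 genes summed to 1346 ± 184 CPM in CNTR (SD, n = 3) and 1320 ± 220 CPM in PAMH F3 (SD, n = 4). Per kilobase of exon union, Igfbp7 took between 31.4% and 38.8% of the pool and Igfbp5 between 23.1% and 41.5%. The share of Igfbp6 was 13.6%, 21.9% and 17.1% in the CNTR libraries and 9.87%, 12.7%, 15.9% and 8.22% in the PAMH F3 libraries. The ranges overlapped, with PAMH F3 3 above CNTR 1. With the median transcript length instead, Igfbp4 took the most in every library, between 30.2% and 39.9%.

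**Figure D4:**
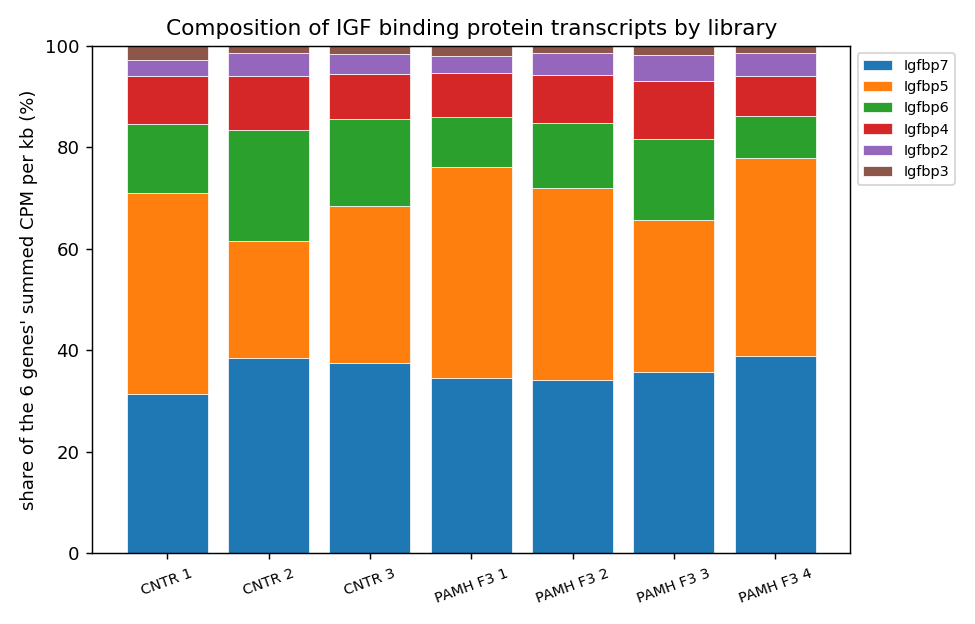
Share of each of 6 binding protein genes in their summed CPM per kb of exon union (y, percent) in each library (x). Igfbp7 and Igfbp5 fill most of each bar, and the Igfbp6 segment ranges from 8.22% in PAMH F3 4 to 21.9% in CNTR 2.

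Other genes of the IGF pathway were taken as 6 lists of 54 genes, of which 48 had enough counts to be tested. In edgeR 0 had an adjusted p of 0.05 or less, and 5 were higher and 2 lower in PAMH F3 at an unadjusted p under 0.05, against 3.75% and 3.89% of all genes. Without surrogate variables 2 were higher and 1 lower. DESeq2 with the same surrogate variables called 2, against 0.583% of all genes, both in the list of binding protein proteases and their inhibitors. The median log2 fold change over the 48 genes was -0.01.

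In that list of 11, the genes that DESeq2 called were both inhibitors. The other inhibitors, Stc2, Timp2 and Timp3, overlapped between the groups, with edgeR log2 fold changes of -0.15, -0.18 and -0.17. Stc1 encodes stanniocalcin-1, an inhibitor of PAPPA. It was at 61.2, 52.1 and 40.0 CPM in the CNTR libraries and at 73.4, 72.4, 132 and 67.4 CPM in the PAMH F3 libraries. Every PAMH F3 library was above every CNTR library, as in 1.85% of all genes tested. Its log2 fold change was 0.72 ± 0.17 (SE), with an adjusted p of 0.511 in edgeR and 0.0143 in DESeq2. Timp1 encodes a metalloproteinase inhibitor and was at 194, 158 and 298 CPM in the CNTR libraries and at 150, 81.0, 46.9 and 123 CPM in the PAMH F3 libraries. All PAMH F3 libraries were lower than all CNTR libraries, as in 2.4% of all genes tested. Of the 48 pathway genes tested, 1 separated in each direction. Its fitted log2 fold change was -1.27 ± 0.23 (SE), with an adjusted p of 0.365 in edgeR and 0.0325 in DESeq2. In DESeq2 without surrogate variables, the adjusted p was 0.910 for Stc1 and 0.998 for Timp1, so both calls were lost. Stc1 and Timp1 were known from earlier results of these data.

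The protease genes themselves overlapped between the groups. Pappa was at 15.9 ± 3.00 CPM in CNTR (SD, n = 3) and 13.3 ± 6.88 CPM in PAMH F3 (SD, n = 4). Htra1, a serine protease and the most counted gene of the list, was at 380 ± 25.1 and 425 ± 25.5 CPM, with a log2 fold change of 0.15 and an edgeR adjusted p of 0.716.

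Downstream of the receptor, 22 of 23 adaptor and PI3K-AKT genes were tested, and 4 were higher and 0 lower at an unadjusted p under 0.05, against 3.75% and 3.89% of all genes. Without surrogate variables 1 was higher, Foxo1. Foxo1, a transcription factor that AKT keeps out of the nucleus, was the most counted of them, at 513 ± 120 CPM in CNTR (SD, n = 3) and 665 ± 75.9 CPM in PAMH F3 (SD, n = 4). CNTR 3 lay within the PAMH F3 range, so the groups overlapped, and the log2 fold change was 0.40 ± 0.11 (SE; edgeR adjusted p = 0.536). The others were Grb14 with a log2 fold change of 0.42, Irs2 with 0.24 and Tsc1 with 0.16, with edgeR adjusted p between 0.617 and 0.640. Without surrogate variables these fold changes were 0.28, 0.055 and 0.13. Their DESeq2 adjusted p were 0.408, 0.731 and 0.900, and that of Foxo1 was 0.117.

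In the growth hormone axis, 1 of 6 genes had an unadjusted p under 0.05. This was Prlr, the prolactin receptor gene, at 557 ± 125 CPM in CNTR and 465 ± 124 CPM in PAMH F3 (log2 fold change -0.36, edgeR adjusted p = 0.611). Prlr is also a luteal marker, and of that list Ptgfr was at 659 ± 197 and 358 ± 161 CPM (log2 fold change -0.95, edgeR adjusted p = 0.540). The part of luteal tissue in the Prlr level was not tested. The insulin receptor gene Insr was at 158 ± 17.9 and 161 ± 11.5 CPM. Its list of other family members and carriers, the 3 RNA-binding proteins of Igf2 mRNA and the neighbours at the imprinted loci held 0 genes with an unadjusted p under 0.05, of 2, 3 and 4 tested. Their most counted genes beside Insr were Igf2bp2, at 19.5 ± 1.61 and 18.8 ± 2.07 CPM, and H19, at 17.6 ± 2.48 and 18.4 ± 4.20 CPM.

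**Figure D5:**
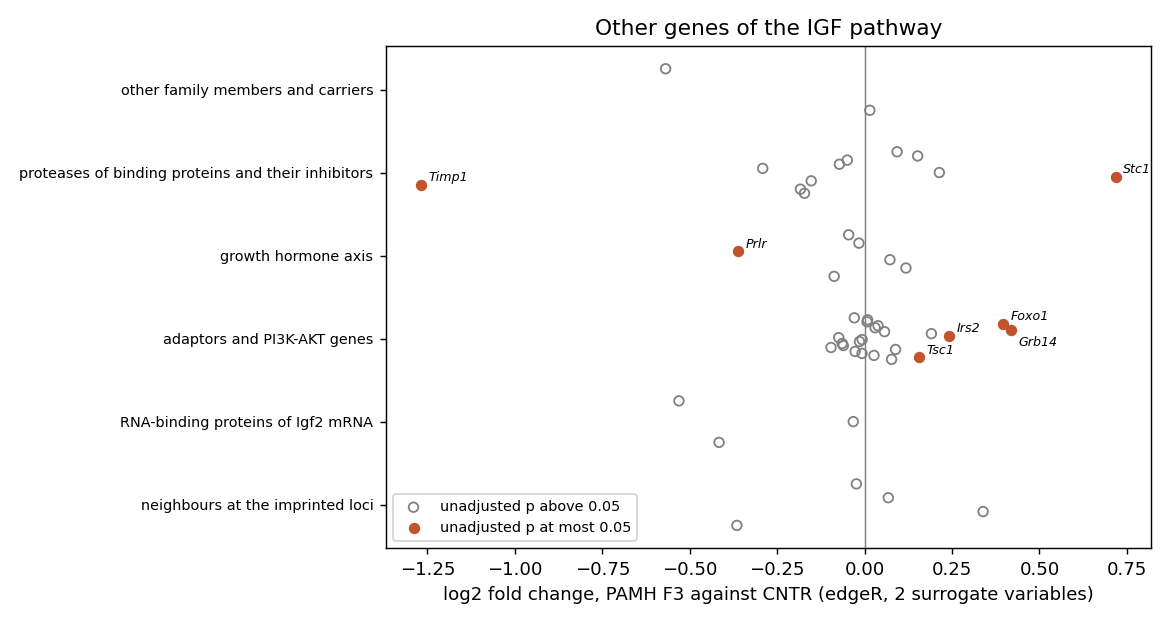
Log2 fold change of PAMH F3 against CNTR (x, edgeR with 2 surrogate variables) for the 48 tested genes of 6 pathway lists (rows), with filled points and names where the unadjusted p was at most 0.05. Of the 7 named genes, 5 lie above 0 and 2 below, from Timp1 at -1.27 to Stc1 at 0.72.

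The gene outside the family whose log2 CPM followed each member most closely over the 7 libraries was recorded as a description, since with 7 points and 18779 genes high values occur readily. Among genes above 1 CPM in every library, Pearson's r was 0.996 for Igfbp7 with Ap2m1, 0.988 for Igfbp2 with Urm1, 0.988 for Igf2r with Odf2, 0.983 for Igfbp5 with Maoa, 0.979 for Igf1r with Tmem206 and 0.976 for Igf1 with Ly96. The closest genes of Igfbp3, Igfbp4 and Igfbp6 were Slc22a14, Gm9949 and AC154442.1, each below 1 CPM in every library. All points share the depth and base composition of their libraries.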

How the data were processed

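Ovarian RNA of 3 CNTR and 4 PAMH F3 mice was made into stranded poly(A) libraries by the authors. The authors mapped the reads to mm10 with STAR 2.5.3a and counted uniquely aligned reads per gene with HTSeq 0.6.1p1 in union mode. They deposited these as raw counts, without normalization. The Ensembl release and the strand setting are not given in the sources used here. Between 45.8% and 47.5% of each library stood in lines that name no gene (summary lines), and these were left out.

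The members and gene lists were chosen with earlier results of these data known. From the pathway lists, genes were named where the unadjusted p was at most 0.05, where the groups did not overlap, or as the most counted gene of a list. Markers were used as sums and were also tested gene by gene. For each member, the gene with the highest Pearson's r was recorded.

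The comparison used the quasi-likelihood F test of edgeR 4.0.16 (R 4.3.3) on TMM-scaled counts of the 18779 genes kept by filterByExpr (minimum count 10), with group and 2 surrogate variables from sva 3.50.0, which left 3 residual degrees of freedom. Benjamini-Hochberg adjustment ran over all genes tested, at a threshold of 0.05. SE is the log2 fold change divided by the root of F. DESeq2 1.42.0 was an alternative. Exact permutation tests used log2(CPM + 0.1). GC content and lengths came from GENCODE M21, and offsets were a spline of each library on both. The fits were tested on simulated data. Alternatives changed the number of surrogate variables, the tool, scaling, filter, robust fitting, offsets, a replicate block and the libraries.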

Additional observations from a re-analysis of the deposited data

How the results depend on the processing

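The number of genes called was 0 in edgeR and 101 in DESeq2 with the same surrogate variables, 6 in DESeq2 without them and 8 in edgeR with no filter. It ranged from 0 to 39 when 1 library was left out. Without CNTR 1 it was 39, without PAMH F3 1 it was 37, and without PAMH F3 1 and without surrogate variables it was 2. The number of members called was 1 in DESeq2 with the same surrogate variables and ranged from 0 to 1 when 1 library was left out, the call being Igfbp6 without CNTR 1. The cause of these differences was not tested.

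The sign of Igf1r, Igfbp3, Igfbp4 and Igfbp6 was the same in all 26 alternatives, but the value came near 0 for the first 3, with ranges from 0.031 to 0.23 for Igf1r, -0.69 to -0.022 for Igfbp3, -0.32 to -0.027 for Igfbp4 and -0.92 to -0.37 for Igfbp6. Among members that turned, log2 fold changes with 0 surrogate variables, with 1, and in DESeq2 without any were 0.075, 0.050 and 0.076 for Igf2r, -0.061, -0.045 and -0.059 for Igfbp2, and 0.10, 0.089 and 0.11 for Igfbp5. With GC and length offsets, they were 0.096 for Igf2r, 0.079 for Igfbp5 and 0.040 for Igfbp7. When 1 library was left out with surrogate variables, values ranged from -0.050 to 0.25 for Igf1, -0.080 to 0.11 for Igf2r, -0.15 to 0.15 for Igfbp2 and -0.16 to 0.32 for Igfbp5. Without surrogate variables they ranged from 0.0010 to 0.18 for Igf2r, -0.17 to 0.14 for Igfbp2 and -0.038 to 0.34 for Igfbp5.

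Deviations from the group mean in libraries with the same replicate number had r = 0.0956, 0.0963 and -0.248 for numbers 1 to 3. Between libraries with different numbers, r ranged from -0.24 to 0.28. With so few pairs, these values cannot show whether same-numbered libraries shared a batch, and the labels give only the number. With the replicate block, 0 genes were called. Igfbp6 was at -0.59, and at -0.37 with the block and the GC and length offsets. Igf1r was at 0.055, and at 0.031 with the offsets. Under the block Igfbp2 was at -0.044 and Igfbp5 at 0.11, or 0.10 with the offsets. For Igf2 the count itself was the limit.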
